A study of Homo sapiens with 54 samples.

Results

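The genes described here were 29 ribosomal protein pseudogenes with transcript levels high enough to be measured in A549 and NCI-H23 cells. They were chosen from the deposited values themselves. A row entered if its name was that of a ribosomal protein gene followed by P and a number, and if it reached 1 TPM, a length-normalised share of all transcripts in a library, in at least 4 libraries of both lines. Of 55906 rows, 946 had such a name and 30 met the rule. *RPS19BP1* was 1 of the 30, but it is a protein-coding gene whose symbol only has the same form, and it was set aside. The high level of these 29 rows in the lung lines is therefore a product of the choice, whereas LN229 and LN319 took no part in it. Nearly all names of the family had little or no signal. Of the 946, 509 were at 0 TPM in every A549 library and 524 in every NCI-H23 library, with 304 such names for LN229 and 369 for LN319.

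Every ribosome carries a fixed set of ribosomal proteins, each encoded in humans by a gene whose mRNA is among the most abundant of the cell. Because these mRNAs are so plentiful, they have been reverse transcribed and inserted back into the genome many times, which left intronless copies called processed pseudogenes. A processed copy leaves the promoter of its parent behind, so its RNA comes from a promoter near the landing site or from a host gene that it landed in. Not all rows described here are of this kind. The annotation lists *RPL23AP82* and *RPL32P3* as unprocessed pseudogenes. *RPL23AP53*, *RPS18P9* and *RPL29P24* have annotated transcripts shorter than their loci. RNA-seq has the further difficulty that reads from a young copy and from its parent can be the same letters.

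The study knocked down or knocked out *TRA2A* and *TRA2B*, paralogs that encode splicing factors which bind purine-rich exon sequences and promote exon inclusion. Of the 54 libraries, in 18 groups of 3 replicates, 12 each came from the lung adenocarcinoma lines A549 and NCI-H23, which carried Zim3-dCas9 (a CRISPR interference repressor) and received control guides (Control KD) or guides to *TRA2A* (TRA2A KD), to *TRA2B* (TRA2B KD) or to both (TRA2A/B DKD). The other 15 each came from the glioma lines LN229 and LN319, which carried Cas9 and overexpressed either luciferase (Luc), combined with guides to control loci, *TRA2A* or *TRA2B* (Luc Control KO, Luc TRA2A KO, Luc TRA2B KO), or overexpressed *TRA2B* with control or *TRA2A* guides (TRA2B-OE Control KO, TRA2B-OE TRA2A KO). Guides were delivered by lentivirus with selection, no source describes the cells as single clones, and all controls carried the same effector as their perturbation. All RNA was poly-A selected into strand-specific libraries. TPM is a level per transcript length, so values of different genes may be compared, but it keeps no record of depth, and precision is given as the spread of replicates.

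The targeted genes fell where the labels place them. On the log2 scale *TRA2A* changed by -3.29 in A549 TRA2A KD and -3.90 in NCI-H23 TRA2A KD, and *TRA2B* by -3.27 and -3.35 in TRA2B KD. In DKD both were lower, by -2.92 and -2.71 in A549 and by -2.44 and -2.13 in NCI-H23. Changes were smaller in LN229 (-0.65 for *TRA2A* and -0.64 for *TRA2B*) than in LN319 (-1.55 and -1.61), and in LN229 TRA2B-OE TRA2A KO the change of -0.22 did not pass the test (limma, adjusted p = 0.079). *KRT8* and *KRT18* were higher in the lung lines than in the glioma lines, with *KRT8* at a median of 2675 TPM in A549 and 725 in NCI-H23. *KRT19* was not, at 15.0 TPM in A549 but 0.249 in NCI-H23, beside 7.91 in LN319. *EPCAM* (1.34 TPM) and *CDH1* (1.65) were also low in NCI-H23, and the lung markers *NKX2-1* and *SFTPB* had medians of 0.721 or less in both lung lines. Of the glial markers, *SOX2* was high in LN229 (64.7 TPM) and LN319 (361). *VIM* was at 3240 and 3130 TPM there, beside 1025 in A549 and 1593 in NCI-H23. *NES* was at 255.8 TPM in LN229 but 7.13 in LN319, and *S100B* at 255.5 but 0.549. *GFAP* did not set the glioma lines apart, at 2.66 TPM in LN229 and 1.83 in LN319 beside 1.99 in A549. LN319 also had the epithelial gene *CDH1* at 123 TPM and *NKX2-1* at 10.6, and *OLIG2* was near 0 there (0.0253). By their medians 0 of 3 endothelial markers reached 1 TPM in any line, and of 4 immune markers only *CD68* did, while single libraries had up to 1.71 TPM of *PECAM1*, 1.63 of *VWF* and 1.83 of *PTPRC*. A549 Control KD replicate 3 stood apart from its line, with a median correlation to the other libraries of 0.837 against 0.872 to 0.927, and it was the highest library for 7 of the 29 pseudogenes. Counts of calls in A549 that changed without it are stated or fall within ranges over left-out libraries, as does the DKD median over all pseudogenes. Changes of parent and host genes and medians by class in A549 are given only with it.

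Sequence decides how well a copy can be told from its parent, so the copies on which the results turn are shown first. The sequences and positions are those of human genome build GRCh38 (hg38), matched to the tables by symbol, and are written 5′ to 3′ in the direction of the gene. *RPL9P9*, at chr15:82372211-82372914 on the minus strand, matched the *RPL9* transcript in 703 of 704 bases, and RefSeq lists it under the symbol RPL9P8. The 61 coding bases around the difference are given for *RPL9*, for *RPL9P9* and for *RPL9P7* (chrX:23836742-23837321, minus strand), with the differing bases in capitals.
RPL9: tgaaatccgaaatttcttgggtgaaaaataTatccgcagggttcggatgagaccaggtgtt
RPL9P9: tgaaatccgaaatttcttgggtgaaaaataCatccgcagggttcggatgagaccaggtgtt
RPL9P7: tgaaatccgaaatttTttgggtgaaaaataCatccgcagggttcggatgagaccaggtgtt

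*RPL23AP42*, at chr3:161429127-161429597 on the minus strand, differed from *RPL23A* at coding positions 348 and 377, counted from the start codon. Both fall in the following 61 bases, and the capitals mark them.
RPL23A: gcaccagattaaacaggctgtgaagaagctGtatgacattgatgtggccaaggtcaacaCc
RPL23AP42: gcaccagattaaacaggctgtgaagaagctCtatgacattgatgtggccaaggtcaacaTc

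*RPS28P7*, at chr11:82689559-82689768 on the plus strand, was identical to the *RPS28* transcript over all of its 210 bases, so that no read inside it can say which of the 2 loci made it.

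*RPL13AP20* and *RPL31P15* carry the main results of the double knockdown. The former is a copy of 609 bases at chr12:12875499-12876107 on the plus strand, outside any other annotated gene and 96.7% identical to *RPL13A*. Of its 31-base words 41.6% also occur in *RPL13A*, the largest share among the 23 copies that were not classed as near-identical, and 46.6% in any other gene, so a part of its reads cannot be told from those of the parent.

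*RPL31P15*, at chr2:182788098-182788435 on the plus strand, was 78.2% identical to *RPL31* and lies wholly inside annotated exons of *DNAJC10*, which encodes a disulfide reductase of the endoplasmic reticulum. Of its 31-base words, 100% also occur in annotated *DNAJC10* transcripts and 1.3% in *RPL31*. A window of 150 coding bases of *RPL31* is shown with its counterpart, and capitals mark bases that differ or have no counterpart.
RPL31: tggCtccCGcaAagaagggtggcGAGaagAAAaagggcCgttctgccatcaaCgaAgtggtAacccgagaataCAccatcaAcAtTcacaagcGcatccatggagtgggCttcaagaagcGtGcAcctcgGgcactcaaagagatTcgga
RPL31P15: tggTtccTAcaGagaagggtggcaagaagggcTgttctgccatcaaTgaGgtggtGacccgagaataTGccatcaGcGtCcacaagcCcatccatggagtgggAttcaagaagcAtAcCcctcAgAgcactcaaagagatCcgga

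*RPS15AP10*, at chr1:45645816-45646197 on the minus strand within an intron of *GPBP1L1*, was 85.0% identical to *RPS15A*. The first 150 coding bases of *RPS15A* and their counterpart are shown, again with capitals for bases that differ or have no counterpart.
RPS15A: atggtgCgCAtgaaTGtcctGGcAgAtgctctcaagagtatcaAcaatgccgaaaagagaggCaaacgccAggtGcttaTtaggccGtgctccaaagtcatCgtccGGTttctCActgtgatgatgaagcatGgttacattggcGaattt
RPS15AP10: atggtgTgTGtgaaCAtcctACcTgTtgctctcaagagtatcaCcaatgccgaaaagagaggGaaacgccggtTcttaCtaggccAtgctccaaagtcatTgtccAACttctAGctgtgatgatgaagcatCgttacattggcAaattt

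The 29 pseudogenes were sorted by position and sequence. In 6 of them (*RPL23AP42*, *RPL9P7*, *RPL9P9*, *RPS28P7*, *RPS2P5* and *RPS3AP26*) over 50% of the 31-base words, the word length that kallisto uses by default, were also found in the parent. Of these *RPL9P7* and *RPS3AP26* also lay in introns of a coding gene on the same strand (*APOO* and *BAIAP2L1*) but were kept in the class set by sequence. Another 12 lay inside a protein-coding gene on the same strand, and among the 12 *RPL31P15* (in *DNAJC10*) and *RPL32P29* (in *RPS29*) were wholly exonic while the other 10 had 0% of their bases in exons of the host. The remaining 11 were classed as elsewhere. For *RPL23AP7*, which is among the 11, no single position was settled, so no host gene was sought. Of the 31-base words of *RPL23AP82* and *RPL23AP24*, 100% also occur in annotated transcripts of other genes, and of those of *RPL32P3* 86.5%. Each of these copies overlaps, on the same strand, another annotated gene that is not protein-coding. For *RPL23AP82* that gene is an entry of *RPL23AP7*. The part of other genes in their levels was not tested. Reads of a copy within an intron can come from unspliced or partly spliced RNA of the host, so the levels of host genes are given beside those of their pseudogenes.

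Transcript levels of the pseudogenes were very unequal, and 3 rows carried most of the signal. *RPL23AP42* had a mean of 1073 TPM over the 54 libraries (509 to 1702), *RPL9P9* 401.5 (0.126 to 800.5) and *RPS2P5* 127.7 (27.1 to 263). Then came *RPS28P7* (30.4), *RPL32P3* (24.1), *RPL23AP82* (21.9) and *RPL13AP20* (7.19), and every other row had a mean under 7. All 3 leading rows belong to the near-identical class. Summed over the 29, the level was 1788 to 2340 TPM in A549, 1526 to 2623 in LN319, 1243 to 1763 in NCI-H23 and 774 to 1456 in LN229. Without the 3 leading rows it was 58.9 to 262.6 in A549, 72.7 to 170.1 in NCI-H23, 86.1 to 234.8 in LN229 and 111.6 to 251.4 in LN319.

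Set against the parent in control libraries, most copies were minor. In A549 and LN229 23 of the 29 lay under 1% of the parent's TPM, in LN319 20 and in NCI-H23 24, with a median ratio between 0.125% (LN229) and 0.315% (LN319). The largest ratios, as means over the 4 lines, were those of *RPL9P9* (148.6%), *RPL23AP42* (107.9%) and *RPS2P5* (7.60%). At the other end *RPL31P15* stood at 0.00804% of *RPL31*, *RPS2P32* at 0.0250% of *RPS2* and *RPL39P36* at 0.0434% of *RPL39*. *RPS2P32* was above 0 TPM in nearly every library of the lung lines (0 to 4.34 TPM in A549, 0.247 to 1.96 in NCI-H23) but did not exceed 0.108 TPM in either glioma line.

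The choice of rows had 2 consequences for what follows. When the DKD libraries were left out, 9 of the 29 no longer reached the threshold in A549 and 6 in NCI-H23. *RPL31P15*, *RPL32P29*, *RPL39P36*, *RPL9P7* and *RPS7P3* failed in both lines. *RPL23AP24*, *RPL36AP15*, *RPS15AP36* and *RPS28P7* failed in A549 only, and *RPL29P24* in NCI-H23 only. A level in the DKD libraries was thus a condition of entry for each of them in the line or lines where it failed. Their DKD tests there use values that chose them and are given as a description. Without A549 Control KD replicate 3 all 29 still entered. Just inside the threshold lay *RPL29P24* (4 NCI-H23 libraries, the fourth at 1.06 TPM) and *RPL31P15* (4 libraries in each line, the fourth at 1.53 TPM in A549 and 1.02 in NCI-H23), and just outside lay *RPL35P3* (the fourth library at 0.987 TPM in A549) and *RPS12P27* (0.206 in A549 and 0.888 in NCI-H23). In the glioma lines, 22 of the 29 passed the filter of 1 TPM in 4 libraries in LN229 and 21 in LN319. *RPL31P15* passed in neither, with 0 TPM in all but 1 library of each line.

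**Figure D1:**
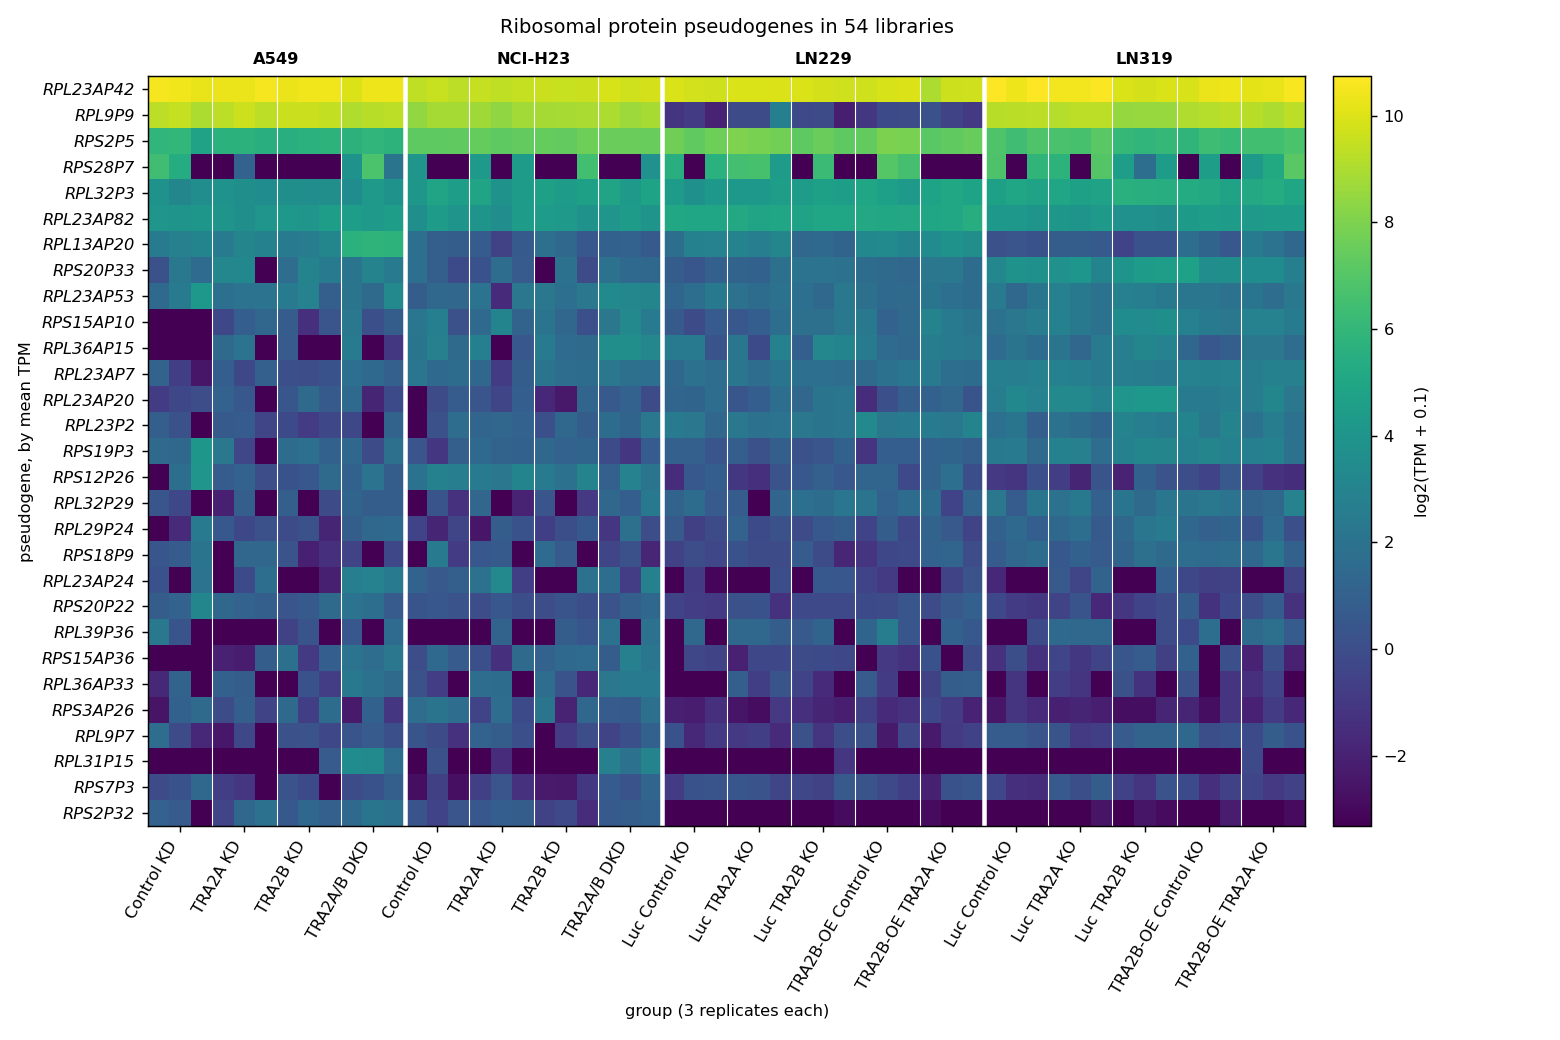
Level of each of the 29 pseudogenes in each of the 54 libraries, as log2(TPM + 0.1) on a colour scale, with rows ordered by mean TPM, thick white lines between cell lines and thin ones between groups of 3 replicates. *RPL23AP42* is high in all libraries, *RPL9P9* is high in 3 lines and near 0 in LN229, *RPL13AP20* is highest in the A549 TRA2A/B DKD libraries, and *RPS28P7* switches between 0 and over 10 TPM among replicates.

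*RPL9P9* and its parent, which encodes a protein of the large ribosomal subunit, divided their signal very differently in the 4 lines. Of the TPM of both rows together, *RPL9P9* took a median of 71.7% in A549 (68.0 to 76.6), 40.1% in NCI-H23 (39.2 to 42.0) and 75.7% in LN319 (71.5 to 80.9), but 0.0798% in LN229 (0.0143 to 0.642). The ranges of LN229 and NCI-H23 did not overlap with each other or with those of A549 and LN319, while the latter pair overlapped. The summed TPM of both rows was closer between lines, at 500 to 869 in LN319, 734 to 1117 in A549, 840 to 1017 in LN229 and 839 to 1270 in NCI-H23. Only 1 base separates the 2 sequences over the 704 bases of the copy. Which of the 2 loci the reads came from was not tested. These values are descriptions across lines whose tables were scaled separately.

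*RPL23AP42* was close to its parent *RPL23A* (a large-subunit protein at the tunnel exit) in every line. Its share of the TPM of both rows had medians of 48.5% in NCI-H23, 49.7% in A549, 54.7% in LN319 and 54.8% in LN229, with single libraries between 38.2% (an LN229 library) and 58.0%. The 2 sequences differ at 2 coding bases, and 86.4% of the 31-base words of the copy occur in *RPL23A*. *RPS2P5*, 98.7% identical to *RPS2* (a small-subunit protein), took a median of 2.12% in A549, 6.80% in NCI-H23, 9.26% in LN319 and 9.41% in LN229.

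*RPS28P7* behaved unlike a gene with a steady level. It was at 0 TPM in 24 of the 54 libraries and over 10 TPM in 27, and in 11 of the 18 groups both kinds stood side by side. In A549 Control KD, for example, its values were 84.4, 42.1 and 0 TPM, and in LN319 Luc Control KO they were 111.6, 0 and 59.1. Meanwhile *RPS28* was listed between 260 and 1143 TPM in every library. The copy and its parent could not be told apart by sequence, and no difference of *RPS28P7* between groups is read here as a change of that locus.

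**Figure D2:**
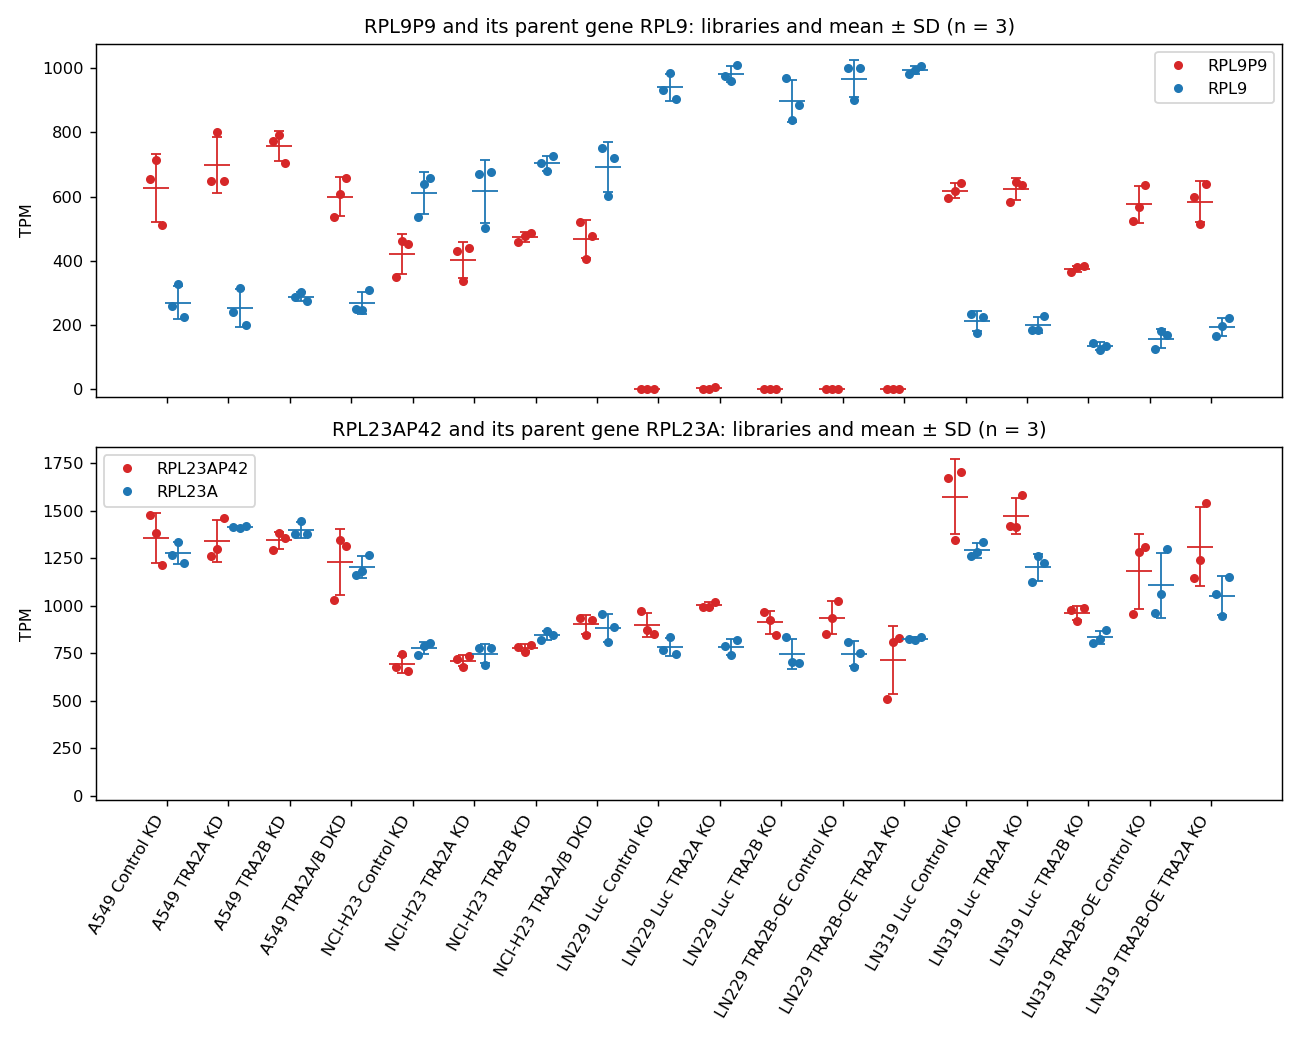
TPM of *RPL9P9* (red, above) and *RPL9* (blue, above) and of *RPL23AP42* (red, below) and *RPL23A* (blue, below) in each of the 18 groups, with points for libraries and bars for the mean ± SD of 3 replicates. *RPL9P9* is above its parent in A549 and LN319, below it in NCI-H23 and near 0 in LN229, whereas *RPL23AP42* and *RPL23A* keep to similar levels.

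Perturbations were compared with their own control in limma, 1 fit per line over all genes that passed the filter, on log2(TPM + 0.1) after scaling. A fold change of a low gene is understated on this scale. A gene was called at a Benjamini-Hochberg adjusted p under 0.05 and a change above 2-fold (1 on the log2 scale). Where groups are said not to overlap, this is a description. The share of all genes without overlap is not given here, and for a called gene the call itself makes it likely. Where nothing says that replicates were separate cultures, the tests measure only the spread between these samples, and in bulk RNA fewer cells with a transcript and less of it per cell cannot be told apart.

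Knockdown of a single paralog in the lung lines called none of the 29 pseudogenes. The background was low, since 0.116% of all genes were called in A549 TRA2A KD, 0.232% in A549 TRA2B KD, 0.252% in NCI-H23 TRA2A KD and 0.11% in NCI-H23 TRA2B KD. At an unadjusted p under 0.05, A549 TRA2A KD had 3 pseudogenes beside 1851 of all 16405 genes tested. A549 TRA2B KD had 3 beside 2221 of 16405. For NCI-H23 TRA2A KD the count was 2 beside 2218 of 16293, and for NCI-H23 TRA2B KD it was 1 beside 1729 of 16293. Without A549 Control KD replicate 3, *RPS28P7* was called lower in A549 TRA2B KD, where all 3 libraries were at 0. *RPS15AP10* came closest otherwise. It was at 0 in the 3 A549 controls and at 0.737, 1.70 and 2.41 TPM in TRA2A KD (adjusted p = 0.0716) and 1.59, 0.289 and 1.21 TPM in TRA2B KD (adjusted p = 0.131). All 6 single-knockdown libraries thus lay above all 3 controls. However, the 6 A549 libraries in which *RPS15AP10* reached 1 TPM were all knockdowns, since the controls were at 0. Its entry in A549 rested on knockdown libraries alone, so these values are given as a description.

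Double knockdown called 4 of the 29 in A549, all of them higher than in control, beside 12.8% of all genes. This share of 13.8% is near the background. The 4 were *RPL13AP20*, *RPL31P15*, *RPS15AP10* and *RPS15AP36*, and without A549 Control KD replicate 3 *RPL23AP24* and *RPL29P24* joined them to make 6. The share of all genes called in that fit is not printed here, so the 6 have no background beside them. *RPL23AP24* also needed the DKD libraries to enter in A549. In NCI-H23 2 of the 29 were called, *RPL31P15* and *RPS7P3*, both higher, again beside 12.8% of all genes. Of these, *RPL31P15* was the only one called in both lines. At any fold, 4 of 29 in A549 (30.6% of all genes) and 3 of 29 in NCI-H23 (43.2% of all genes) had an adjusted p under 0.05.

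*RPL13AP20* gave the clearest values. Its parent, *RPL13A*, encodes a large-subunit protein that is also known as part of a translation-silencing complex in inflammation. In A549 the pseudogene stood at 5.67, 6.89 and 7.94 TPM in Control KD, at 5.60, 8.40 and 7.16 in TRA2A KD and at 5.53, 5.89 and 8.58 in TRA2B KD. In DKD it stood at 50.9, 55.9 and 55.0 TPM, so the 3 DKD libraries were far above the other 9, which overlapped with each other. The log2 fold change of DKD against control was 2.89 ± 0.18 (SE, n = 3 and 3), with an adjusted p of 2.297e-06, and it lay between 2.83 and 2.94 when any 1 library of the 2 groups was left out. Entry did not rest on DKD, since all 12 A549 libraries exceeded 1 TPM.

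The parent moved little beside it. *RPL13A* was at 2527, 2512 and 1906 TPM in A549 Control KD and at 2713, 2904 and 3000 in DKD, a log2 fold change of 0.24 that did not pass the test (adjusted p = 0.307). The lowest of these values was that of Control KD replicate 3, and the change without it is not given. The log2 ratio of copy to parent rose by 2.65, and the groups did not overlap. An exact permutation test of this ratio gave p = 0.1 (two-sided), the smallest that 3 against 3 libraries allow.

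The same comparison in NCI-H23 showed no such rise. There *RPL13AP20* had 3.45, 1.83 and 1.69 TPM in Control KD and 1.98, 2.01 and 1.45 in DKD, a log2 fold change of -0.43 that did not pass (adjusted p = 0.489), while *RPL13A* rose by 0.47 (adjusted p = 1.378e-04). In LN229 the copy was at 3.22, 7.25 and 7.27 TPM in Luc Control KO and at 2.36, 2.67 and 2.23 in Luc TRA2B KO. All 3 knockout libraries were below all 3 controls, and the log2 fold change of -1.21 had an adjusted p of 0.0542. It was called lower once Luc Control KO replicate 1, the lowest of the controls, was left out. In TRA2B-OE LN229 cells it had 9.48, 10.2 and 7.97 TPM with control guides and 10.7, 14.1 and 12.3 with *TRA2A* guides. LN319 had the lowest levels, 1.03, 1.20 and 1.04 TPM in Luc Control KO, and its TRA2B-OE groups lay higher, at 3.31, 2.17 and 1.33 TPM with control guides and 5.49, 3.93 and 2.55 with *TRA2A* guides. None of these glioma comparisons called *RPL13AP20*.

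*RPL31P15* was near absent outside DKD. In A549 it was listed at 0 in all libraries of Control KD and TRA2A KD and in 2 of TRA2B KD, with 1.53 TPM in the other, and DKD had 11.4, 10.5 and 3.19 TPM (adjusted p = 0.003178). NCI-H23 had 0, 1.02 and 0 TPM in Control KD, 0, 0.249 and 0 in TRA2A KD, 0 in all of TRA2B KD, and 6.86, 3.88 and 7.72 in DKD. The NCI-H23 log2 fold change was 4.65 ± 1.07 (SE), with an adjusted p of 0.004774. In both lines each DKD library was above each library of the other groups. These values carry the caution that they also put the row on the list.

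The host gene of *RPL31P15* did not follow. *DNAJC10* had a mean of 43.9 TPM in A549 Control KD and 44.9 in DKD (log2 fold change -0.04, adjusted p = 0.681), and 53.0 and 49.8 in NCI-H23 (log2 fold change -0.25, adjusted p = 0.061). *RPL31*, the parent, changed by 0.04 in A549 and by 0.12 in NCI-H23, and neither passed. Since every 31-base word of the copy is also in *DNAJC10* transcripts, RNA of the copy and RNA of those host exons cannot be told apart in this row. In the glioma lines the only values above 0 were 0.371 TPM in LN229 Luc TRA2B KO replicate 3 and 0.759 TPM in LN319 TRA2B-OE TRA2A KO replicate 1.

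*RPS15AP10* and *RPS15AP36*, both copies of the small-subunit gene *RPS15A*, were at 0 in the 3 A549 controls. In DKD *RPS15AP10* had 4.75, 0.997 and 1.69 TPM (adjusted p = 0.001716) and *RPS15AP36* 3.96, 3.10 and 4.65 TPM (adjusted p = 0.001724), so every DKD library exceeded every control. Both rows entered in A549 on knockdown libraries alone, so these comparisons with the controls are a description. *RPS15A* itself changed by -0.20 and did not pass. The host *GPBP1L1* of *RPS15AP10* had 27.9 to 39.9 TPM in the 3 Control KD libraries and 40.6 to 46.2 in the 3 of DKD, so its groups did not overlap either, with a log2 fold change of 0.34 that did not pass (adjusted p = 0.064). In NCI-H23 DKD *GPBP1L1* rose by 0.41 (adjusted p = 6.802e-04), and the part of the host in the level of its copy was not tested. The DKD values of *RPS15AP10* overlapped with those of both single knockdowns, and those of *RPS15AP36* with TRA2B KD, which had 3.61, 0.434 and 1.75 TPM. In NCI-H23, where the controls were above 0, neither was called, with log2 fold changes of 0.79 (adjusted p = 0.416) and 1.05 (adjusted p = 0.252). *RPS7P3*, a copy of *RPS7* inside *PCNX2*, had 0.0463, 0.526 and 0.0512 TPM in NCI-H23 Control KD and 1.58, 1.09 and 2.29 in DKD, a log2 fold change of 2.70 ± 0.79 (SE; adjusted p = 0.01714). The call was lost without Control KD replicate 3 or DKD replicate 3. *PCNX2* was higher by 0.54 on the log2 scale (adjusted p = 0.0409), *RPS7* by 0.19 (not passing), and in A549 *RPS7P3* did not pass at -0.21.

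Over all 29 pseudogenes the median log2 fold change in DKD was 0.33 in A549 and 0.42 in NCI-H23, beside 0.03 and 0.02 over all genes, and 19 and 21 of the 29 were above 0. The median excess over the parent was 0.40 and 0.47. By class, the 12 copies inside coding genes had medians of 1.46 and 1.10, the 11 elsewhere 0.32 and 0.25, and the 6 near-identical ones 0.02 and 0.05. Because DKD libraries helped to choose the rows, these medians are given as a description. Of the rows that needed DKD to enter, *RPL31P15*, *RPL32P29*, *RPL39P36* and *RPS7P3* (both lines), *RPL36AP15* (A549) and *RPL29P24* (NCI-H23) lay inside coding genes. In the class elsewhere only *RPL23AP24* and *RPS15AP36* did so, both in A549, and in the near-identical class *RPL9P7* (both lines) and *RPS28P7* (A549). The classes thus differ in how far DKD chose them. Among the near-identical copies *RPL23AP42* rose in NCI-H23 by 0.23 (adjusted p = 0.005779), below 2-fold, from 675, 743 and 654 TPM to 937, 845 and 924, while *RPL23A* changed by 0.02. Of the 79 cytosolic ribosomal protein genes 1 was called higher in each line and none lower, beside 12.8% of all genes called in each line. At any fold 1 rose and 0 fell in A549, beside 14.3% and 16.3% of all genes. In NCI-H23 5 rose and 15 fell at any fold, beside 20% and 23.2% of all genes. Of 17 pseudogenes of other families chosen by the same rule on TPM, 3 were called higher and 1 lower in A549, and 5 higher in NCI-H23, beside the same 12.8%.

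**Figure D3:**
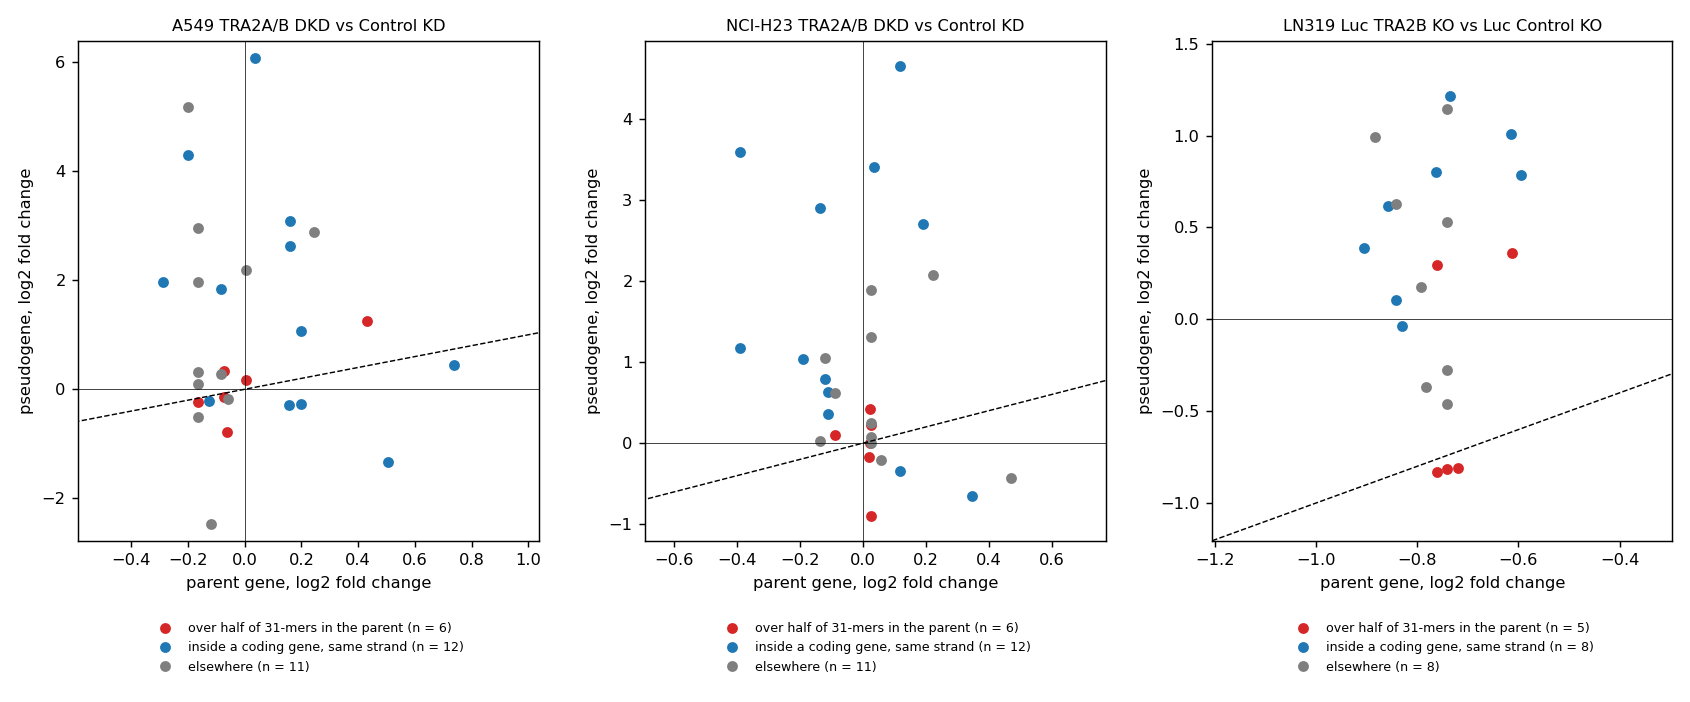
Log2 fold change of each pseudogene (vertical axis) against that of its parent gene (horizontal axis) in A549 DKD, NCI-H23 DKD and LN319 Luc TRA2B KO, with colours for the 3 sequence classes and a dashed line where both are equal. In the DKD panels the pseudogenes spread widely while the parents stay within about 1 of 0, and in LN319 all parents shown are below 0 while 3 near-identical copies lie beside the line and most others above it.

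The difference of DKD from the sum of both single knockdowns was tested as a contrast. In A549 it called 2 of the 29 (7.72% of all genes) and in NCI-H23 2 (6.56%). *RPL13AP20* exceeded the sum of the single effects in A549 by 2.67 on the log2 scale (± 0.26 SE, adjusted p = 1.522e-04), a value of 2.54 to 2.87 with any 1 library left out. *RPL31P15* exceeded it in NCI-H23 (adjusted p = 0.01275) but did not pass in A549 (adjusted p = 0.0865). *RPS28P7*, whose entry in A549 rested on DKD and whose reads cannot be told from those of *RPS28*, was called in A549 (adjusted p = 0.0299), on DKD values of 14.4, 109.2 and 4.11 TPM against 0 TPM in 5 of the 6 single-knockdown libraries, and lost the call in 8 of 12 fits that left out 1 library. *RPS19P3*, a copy of *RPS19* inside *SNX6*, was lower than the sum in NCI-H23 by 2.58 (± 0.76 SE, adjusted p = 0.0337). It had 1.20, 0.371 and 1.79 TPM in Control KD, 1.99 to 2.67 TPM in the 6 single-knockdown libraries and 0.871, 0.362 and 1.59 TPM in DKD. Its call was lost in 7 of 12 such fits, and *SNX6* itself was higher than the sum by 1.23 (adjusted p = 0.006458). At any fold *RPL9P9* was below the sum in A549 by 0.82 (adjusted p = 0.0479).

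**Figure D4:**
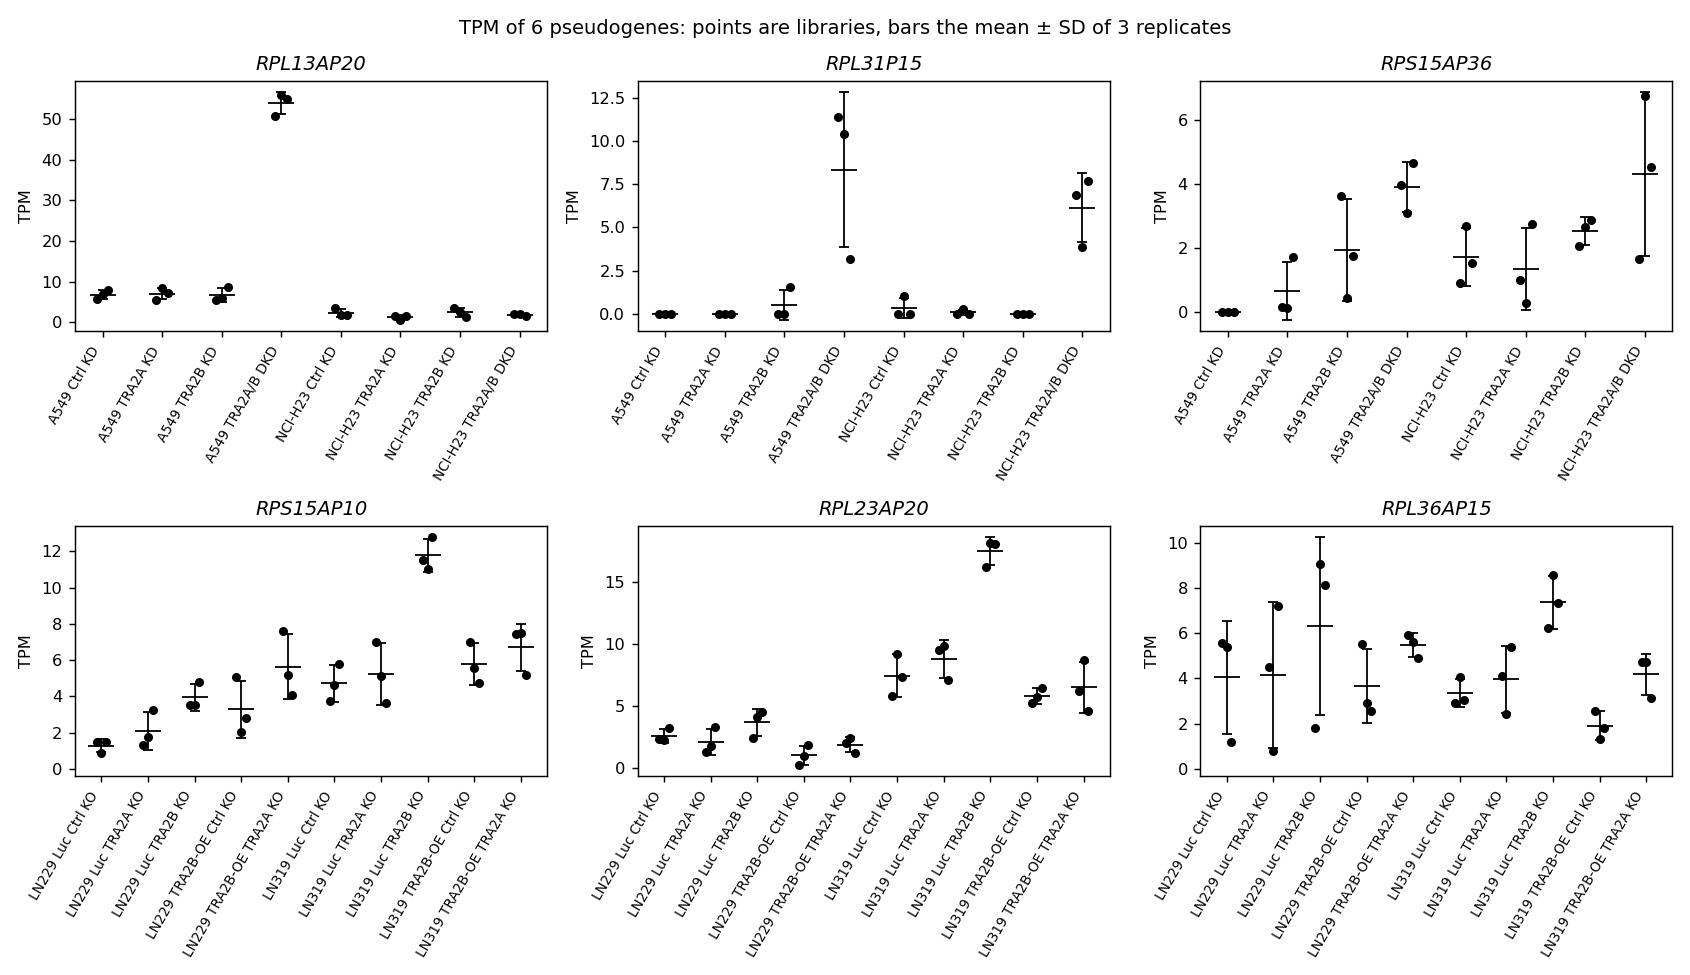
TPM in every library (points) with the mean ± SD of 3 replicates (bars) for *RPL13AP20*, *RPL31P15* and *RPS15AP36* in the lung lines and *RPS15AP10*, *RPL23AP20* and *RPL36AP15* in the glioma lines. *RPL13AP20* lies between 50.9 and 55.9 TPM in A549 DKD and below 9 in all other lung libraries, and *RPS15AP10* and *RPL23AP20* are highest in LN319 Luc TRA2B KO.

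The glioma lines, which the rule did not use, showed most calls in LN319 Luc TRA2B KO. Of 21 pseudogenes tested 3 were called, all higher, beside 3.92% of all genes. *RPS15AP10* had 3.75, 4.64 and 5.79 TPM in Luc Control KO and 11.5, 11.0 and 12.8 in Luc TRA2B KO (log2 fold change 1.21 ± 0.21 SE, adjusted p = 6.346e-04). *RPL23AP20*, an old copy of *RPL23A* (82.4% identical, chr1:241916123-241916543, plus strand), rose from 5.77, 9.23 and 7.31 TPM to 16.2, 18.2 and 18.1 (1.14 ± 0.20 SE, adjusted p = 6.591e-04). *RPL36AP15*, a copy of *RPL36A* inside *FBXO11*, rose from 2.94, 4.07 and 3.07 TPM to 6.24, 8.56 and 7.32 (1.01 ± 0.29 SE, adjusted p = 0.0130). None of the 3 overlapped between the groups, which their calls make likely and which adds no support. For *RPL36AP15*, 100% of the 31-base words also occur, read on either strand, in annotated transcripts of other genes, with 0% in *RPL36A* and 0% in *FBXO11*. On the opposite strand it overlaps the coding gene *MSH6*, whose level was not compared here. Whether the quantification used strand is not given in the sources used here, and the part of other genes in the level of *RPL36AP15* was not tested. Leaving out Luc Control KO replicate 1 or 3 or Luc TRA2B KO replicate 2 took *RPL36AP15* below 2-fold, and leaving out Luc Control KO replicate 1 did so for *RPL23AP20*.

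Their parents went the other way. *RPS15A* fell by 0.74, *RPL23A* by 0.74 and *RPL36A* by 0.61 on the log2 scale, and each passed the test. The log2 ratio of copy to parent rose by 1.95 for *RPS15AP10*, 1.88 for *RPL23AP20* and 1.62 for *RPL36AP15*, each with an exact permutation p of 0.1, the smallest possible. The host *GPBP1L1* of *RPS15AP10* changed by -0.05 (adjusted p = 0.445), and *FBXO11* rose by 0.12 (adjusted p = 0.0325).

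At any fold 11 of the 21 passed in LN319 Luc TRA2B KO, beside 42.6% of all genes, in both directions. The 6 that rose were the 3 above with *RPL23P2* (0.99), *RPS19P3* (0.80) and *RPL32P3* (0.63, from 24.9, 31.1 and 26.8 TPM to 48.9, 45.4 and 43.1). The 5 that fell were *RPL9P9*, *RPL23AP42* and *RPS2P5*, all near-identical to their parents, with *RPL23AP82* (-0.46) and *RPL23AP7* (-0.28). Since *RPL23AP82* overlaps an entry of *RPL23AP7*, the falls of this pair need not be separate. *RPL9P9* went from 595.6, 616.5 and 643.7 TPM to 363.7, 378.8 and 382.1 (-0.83 ± 0.11 SE, adjusted p = 1.238e-04), beside -0.76 for *RPL9*. *RPL23AP42* went from 1672, 1345 and 1702 TPM to 976, 918 and 986 (-0.81, adjusted p = 0.001729), beside -0.74 for *RPL23A*, and *RPS2P5* fell by 0.81 (adjusted p = 0.004285), beside 0.72 for *RPS2*. The log2 ratios of these 3 near-identical copies to their parents differed from control by -0.07, -0.07 and -0.09, and the ratios of the groups overlapped. An exact permutation test gave p of 0.6, 0.6 and 0.4, where 0.1 is the smallest possible, so these tests do not show that the ratios were equal.

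In the same comparison 76 of the 79 cytosolic ribosomal protein genes fell at any fold, with a median of -0.77, while 18.6% of all genes rose and 24% fell. The median of the 21 pseudogenes was 0.36, and their median difference from the parent was 1.06, with 11 of 21 above 1 and none below -1. By class the median log2 fold change was -0.81 for the 5 near-identical copies, 0.70 for the 8 inside coding genes and 0.35 for the 8 elsewhere. A rise was not particular to ribosomal protein copies. Pseudogenes of other families, chosen by the same rule on TPM, had a median of 0.83. Of the 14 of them tested, 6 rose and 1 fell at any fold, and 2 were called, both higher. The Luc TRA2B KO libraries also held a larger share of mitochondrial transcripts, 18.3% to 20.6% of TPM against 12.1% to 12.8% in the controls, and the part of that share in the result was not tested.

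LN229 Luc TRA2B KO called 1 of 22, beside 0.135% of all genes. *RPS20P33*, a copy of *RPS20* (76.7% identical) in an intron of *PACS2* (chr14:105374618-105374971, plus strand) that shares no 31-base word with any other gene, rose from 1.66, 1.27 and 1.86 TPM to 3.99, 4.03 and 3.71 (1.21 ± 0.23 SE, adjusted p = 0.0389). The groups did not overlap, *RPS20* changed by -0.25 and *PACS2* by 0.13, and neither of these passed. The call was lost in 5 of 6 fits without 1 library and held only without Luc Control KO replicate 1, when *RPS15AP10* was called higher and *RPL13AP20* lower as well. *RPS15AP10* was at 1.47, 0.853 and 1.51 TPM in Luc Control KO and 3.52, 3.53 and 4.78 in Luc TRA2B KO (1.54, adjusted p = 0.0723). It thus had its 3 knockout libraries above its 3 controls in both glioma lines, with a call in LN319. In LN319 *RPS20P33* had 8.84, 14.4 and 13.2 TPM in Luc Control KO and 15.4, 21.0 and 23.6 in Luc TRA2B KO, and it did not pass.

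Knockout of *TRA2A* called none in LN229 (0 of 22, 0.687% of all genes called) and none in LN319 (0 of 21, 1.88% of all genes). At an unadjusted p under 0.05 there were 3 pseudogenes in LN229, beside 3996 of 18490 genes, and 2 in LN319, beside 5423 of 19303. Overexpression of *TRA2B* against luciferase, both with control guides, called none in LN229 (0.297% of all genes) or LN319 (0.694%). The counts at an unadjusted p under 0.05 were 6 and 7, beside 2629 of 18490 and 4818 of 19303 genes. In TRA2B-OE cells, *TRA2A* KO called 0 of 22 in LN229 (1.1% of all genes), with 5 at an unadjusted p under 0.05 beside 4148 of 18490 genes. In LN319 it called 1 of 21 (0.233% of all genes), *RPL36AP15*, from 2.58, 1.30 and 1.82 TPM to 4.72, 4.71 and 3.13 (1.18 ± 0.29 SE, adjusted p = 0.0476). That call was lost whenever 1 of the 6 libraries was left out, and the ratio to *RPL36A* gave an exact permutation p of 0.2. The difference between *TRA2A* KO in TRA2B-OE and in Luc cells called 0 pseudogenes in LN229 (0% of all genes) and 0 in LN319 (0.0104% of all genes). For it, 4 and 1 pseudogenes had an unadjusted p under 0.05, beside 1051 of 18490 and 1527 of 19303 genes.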

How the data were processed

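Poly-A RNA-seq of 54 libraries was analysed from 4 deposited tables, 1 per line, in which the authors gave TPM, a length-normalised share of all transcripts, per gene symbol. The submitters' processing notes name kallisto 0.48.0, STAR 2.7.3 and GRCh38, without saying which made the tables. Counts and depth were not used here, so the precision of a value is the spread of 3 replicates. Groups came from the labels. Genes at 1 TPM in at least 4 libraries of a line were scaled by a trimmed mean of log ratios (trims of 30% and 5%), and log2(TPM + 0.1) was fitted with limma 3.58.1 (R 4.3.3), 1 fit per line over all libraries, with Benjamini-Hochberg adjustment over 16405 (A549), 16293 (NCI-H23), 18490 (LN229) and 19303 (LN319) genes. The 14 comparisons and 4 differences of differences used the same fit, which was tested on simulated data. Ratios of copy to parent were compared by a two-sided exact permutation test over 20 regroupings. Named by rule were the 5 pseudogenes of highest mean TPM, those called in the DKD of both lung lines, up to 3 called per comparison or difference of differences by size of change, the 3 largest and 3 smallest ratios to the parent, and those at the threshold of entry. Others, such as *RPL23P2*, *RPL23AP7*, *RPL23AP82* and *RPL23AP24*, were named after their values were seen. The pseudogenes, lists and tests were chosen with earlier results of these data known. Positions and sequences came from Gencode v44 or RefSeq on GRCh38, matched by symbol, since the annotation release behind the tables was not settled. Other pseudocounts, filters, scalings, fits and left-out libraries were tried. The sequence of *RPL13AP20* is not reported here.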

Additional observations from a re-analysis of the deposited data

Results flagged for a closer look

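In 4 cases the effect of the double knockdown differed from the sum of both single knockdowns by limma's test of that difference, on the log2 scale. *RPL13AP20* in A549 exceeded the sum by 2.67 (adjusted p = 1.522e-04), with 3 of 3 DKD libraries above all other A549 libraries. *RPL31P15* in NCI-H23 exceeded it by 6.36 (adjusted p = 0.01275), and *RPS28P7* in A549 by 12.14 (adjusted p = 0.0299). Both rows met the rule of entry in those lines only with the DKD libraries, so these values are a description and support nothing, the call of *RPS28P7* was lost in 8 of 12 fits without 1 library, and its sequence is that of *RPS28*. For both the size depends on the pseudocount of 0.1, since whole groups were at 0 TPM, and with a pseudocount of 1 the values were 2.94 and 7.69. *RPS19P3* in NCI-H23 was below the sum by -2.58 (adjusted p = 0.0337), with 3 of 3 DKD libraries below all 6 single-knockdown libraries, and its call was lost in 7 of 12 such fits. All groups had 3 samples, too few for the search for single samples far from the rest of their group.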

How the results depend on the processing

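No value changed its direction past the test under any alternative. The A549 DKD call of *RPL13AP20* and the LN319 Luc TRA2B KO call of *RPS15AP10* held in all alternatives and with any 1 library left out. So did the DKD calls of *RPL31P15* (both lung lines), *RPS15AP36* (A549) and *RPS15AP10* (A549). The DKD libraries chose *RPL31P15* and *RPS15AP36*, and *RPS15AP10* entered in A549 on knockdown libraries alone, so this is no sign of stability. With a pseudocount of 1 the count of pseudogenes called was 5 in NCI-H23 DKD, 0 in LN229 Luc TRA2B KO, 1 in LN319 Luc TRA2A KO (*RPL39P36*), 0 in LN319 TRA2B-OE TRA2A KO and 4 in the A549 difference of DKD from the single knockdowns, and the A549 DKD median was 0.26. Without the filter on low values the counts were 0 in LN229 Luc TRA2B KO, 0 in LN319 TRA2B-OE TRA2A KO, and 1 in each lung line's difference of DKD from the single knockdowns. TPM without scaling gave an A549 DKD median of 0.42 and 0 calls in LN319 TRA2B-OE TRA2A KO. Quantile normalization gave an NCI-H23 DKD median of 0.23, also 0.23 relative to the parents, ended the call of *RPS7P3* there (adjusted p = 0.0813), and called 2 in LN229 Luc TRA2B KO. Fitting only the groups compared gave 6 in NCI-H23 DKD, 0 in LN229 Luc TRA2B KO and 0 in LN319 TRA2B-OE TRA2A KO. With no minimum fold 11 were called in LN319 Luc TRA2B KO. The cause of these shifts was not tested. The counts here and below are printed without the share of all genes called under the same setting, so they do not show whether the pseudogenes moved apart from the background.

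With any 1 library left out, counts called ranged from 0 to 1 in A549 TRA2B KD, 4 to 6 in A549 DKD, 1 to 4 in NCI-H23 DKD, 0 to 3 in LN229 Luc TRA2B KO, 0 to 1 in LN319 Luc TRA2A KO, 2 to 4 in LN319 Luc TRA2B KO, 0 to 1 in LN319 TRA2B-OE Control KO and 0 to 0 in LN319 TRA2B-OE TRA2A KO, and from 1 to 3 (A549) and 1 to 2 (NCI-H23) in the difference of DKD from the single knockdowns. The DKD median ranged from 0.27 to 0.84 in A549 (0.28 to 0.66 relative to the parents) and from 0.18 to 0.72 in NCI-H23 (0.21 to 0.85).

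Libraries with the same replicate number did not deviate together (correlations of -0.154 to 0.212), so the numbers were not taken to pair them. With the replicate number as a block, 1 pseudogene was called in LN229 Luc TRA2A KO (*RPL36AP33*), 3 in LN229 Luc TRA2B KO, 1 in LN319 TRA2B-OE Control KO (*RPL23P2*) and 0 in LN319 TRA2B-OE TRA2A KO.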
